A study of Mus musculus with 9 samples.

Results

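The 8 genes described here encode the proteins that bring iron, glycine and glutathione into the erythroblast mitochondrion, handle porphyrins at its membranes, and build iron-sulfur clusters inside it. They are the mitochondrial carriers Slc25a37, Slc25a38 and Slc25a39, the ATP-binding cassette transporters Abcb10 and Abcb6, the inner membrane protein Tmem14c, and the cluster proteins Glrx5 and Iscu. Members were taken by name: a probe set belonged to a member if the platform annotation lists that gene symbol and no other. All 8 genes were found, on 9 of the 28939 probe sets outside the array's control block, with 2 probe sets for Iscu and 1 for each other gene. The annotation names 19938 genes by such single-symbol probe sets. Each of the 9 member probe sets passed the filter on dim values, and none lay below the 84.9th percentile of its array.

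The arrays measured RNA of erythroblasts sorted from fetal livers at E14.5, in mid-gestation, as CD71 positive, Ter119 positive and high in forward scatter, that is, large cells with the transferrin receptor and a red cell surface marker. There were 3 Th3/Th3 (homozygote), 3 Th3/+ (heterozygote) and 3 wild type samples, 1 array each. All came from crosses between Th3/+ parents, on a 129SV background crossed back to C57BL/6 over 9 generations, and the labels name no further allele or treatment. Th3 is a germline deletion that takes out the adult beta-globin genes and is used as a mouse model of beta thalassemia. The labels call the samples biological replicates without saying whether a sample was 1 embryo or a pool. The p-values therefore set genotype differences against the spread between such samples within genotypes, which need not be that between single embryos.

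Heme is made partly in mitochondria and partly in the cytosol. Iron and glycine must enter the mitochondrion, a porphyrin precursor must come back in from the cytosol, and ferrochelatase, itself an iron-sulfur protein, then inserts the iron. Iron-sulfur clusters are built on a scaffold protein in the same organelle and passed on to enzymes of respiration and metabolism, and to the cytosolic protein that senses iron and, in erythroblasts, restrains the translation of the first heme synthesis enzyme. Loss of mitochondrial iron import, of the glycine carrier or of the glutaredoxin of cluster transfer causes anemia in animal models or in patients.

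Array quality and labels were examined first. The 2 probe sets shared by the adult beta-globin genes Hbb-bt, Hbb-bs, Hbb-b2 and Hbb-b1 read between 8.43 and 10.09 on the Th3/Th3 arrays, between 13.68 and 13.81 on the Th3/+ arrays and between 13.76 and 13.86 on the wild type arrays (log2 signal). The low signal follows the Th3/Th3 label. On 1 of the 2 probe sets the Th3/+ arrays (13.68 to 13.74) lay just below the wild type arrays (13.76 to 13.82). On the other, the Th3/+ arrays (13.76 to 13.81) and the wild type arrays (13.81 to 13.86) met at 13.81. Margins this small, near the top of the scale, are only a weak check of the Th3/+ and wild type labels. Of the 15 erythroblast markers listed, 12 had a probe set of their own and all 12 lay above the 40th percentile. Of 15 macrophage markers with a probe set, 11 lay above that percentile and 4, Adgre1, Csf1r, Mrc1 and Cd163, at or below it in their mean over the arrays. On the second principal component, with 16.7% of the variance, Th3/+ replicate 1 (20.53) and Th3/Th3 replicate 1 (25.54) stood apart from the other arrays (-14.89 to 7.71), and calls that were lost without these 2 arrays are named below. In these bulk samples, fewer cells of a type and less RNA per cell cannot be told apart.

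Sequences before a transcript start are shown for 4 members. These were picked because the first 3 fell together in Th3/Th3 cells and the fourth, Tmem14c, did not pass the test. Each window holds the 250 bases before a transcript start in RefSeq (GRCm38.p6), 5′ to 3′ on the gene's own strand. Of the 8 members, 6 had an entry for such a window (not Slc25a37 or Iscu). The Slc25a39 window lies inside the span of the gene (chr11:102402969-102408675), so it is not upstream of the whole gene. The end of the Slc25a38 window also reaches just past the gene's first listed base (chr9:120110377). Capitals mark the letters CCNCNCCC on either strand, a core of the CACC box that erythroid Kruppel-like factors bind.
Abcb10, chr8:123983123-123983372, minus strand: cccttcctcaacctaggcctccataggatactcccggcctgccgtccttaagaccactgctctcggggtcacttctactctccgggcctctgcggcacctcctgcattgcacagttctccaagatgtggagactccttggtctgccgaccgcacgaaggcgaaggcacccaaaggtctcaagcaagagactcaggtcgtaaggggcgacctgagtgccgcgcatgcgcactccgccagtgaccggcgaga
Slc25a38, chr9:120110132-120110381, plus strand: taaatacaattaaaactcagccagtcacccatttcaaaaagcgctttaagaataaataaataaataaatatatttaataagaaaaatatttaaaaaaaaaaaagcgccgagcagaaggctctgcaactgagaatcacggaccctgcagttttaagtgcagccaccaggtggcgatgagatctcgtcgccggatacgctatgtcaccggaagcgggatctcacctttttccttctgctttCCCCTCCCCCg
Slc25a39, chr11:102407518-102407767, minus strand: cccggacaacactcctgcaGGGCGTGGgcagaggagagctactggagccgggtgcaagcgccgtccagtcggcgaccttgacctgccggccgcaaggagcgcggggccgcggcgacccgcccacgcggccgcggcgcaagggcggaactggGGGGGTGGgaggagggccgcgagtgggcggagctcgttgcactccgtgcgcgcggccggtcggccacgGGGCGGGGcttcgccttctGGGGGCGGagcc
Tmem14c, chr13:41016000-41016249, plus strand: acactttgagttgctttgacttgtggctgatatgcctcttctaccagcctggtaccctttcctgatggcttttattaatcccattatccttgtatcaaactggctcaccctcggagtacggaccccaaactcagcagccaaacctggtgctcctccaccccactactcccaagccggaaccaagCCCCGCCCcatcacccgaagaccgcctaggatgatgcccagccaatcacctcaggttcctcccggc

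The CACC letters occurred 4 times in the Slc25a39 window and 4 times in the Abcb6 window. They occurred 2 times in the Slc25a38 window, once in that of Tmem14c, and in neither the Abcb10 nor the Glrx5 window. Overlapping matches were counted singly. Of all 32851 windows of that length, 45.9% hold these letters. The letters of the GATA motif (the bases GATA with A or T before and A or G after, on either strand) were in none of the 6 windows and in 26.5% of all windows. The core TGANTCA, shared by NFE2 and AP-1, was in none of the 6 and in 6.75% of all. The letters CCGGAAG of an ETS site were in the Slc25a38 window alone among the 6, and in 6.91% of all. A match of letters is a description of these windows only.

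Th3/Th3 against wild type asked how loss of both copies of the adult beta-globin locus went with the members' RNA. Slc25a37, Abcb10, Slc25a39 and Slc25a38 fell in Th3/Th3 cells, by 3.23-fold, 2.08-fold, 1.93-fold and 1.70-fold, and Iscu rose, by 1.48-fold and 1.63-fold on its probe sets. Abcb6, Tmem14c and Glrx5 did not pass the test. So 4 of 8 members were called lower and 1 of 8 higher (limma, adjusted p under 0.05), where 4.98% of all 17742 probe sets tested were called lower and 7.31% higher. Without the 2 arrays that stood apart 5 members were also called. The members' median difference was -0.54 (log2) and that of all probe sets tested was 0. The 3 arrays of each genotype did not overlap for 5 members that were lower in Th3/Th3 and 1 that was higher, against 12.1% and 15.4% of all probe sets.

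**Figure D1:**
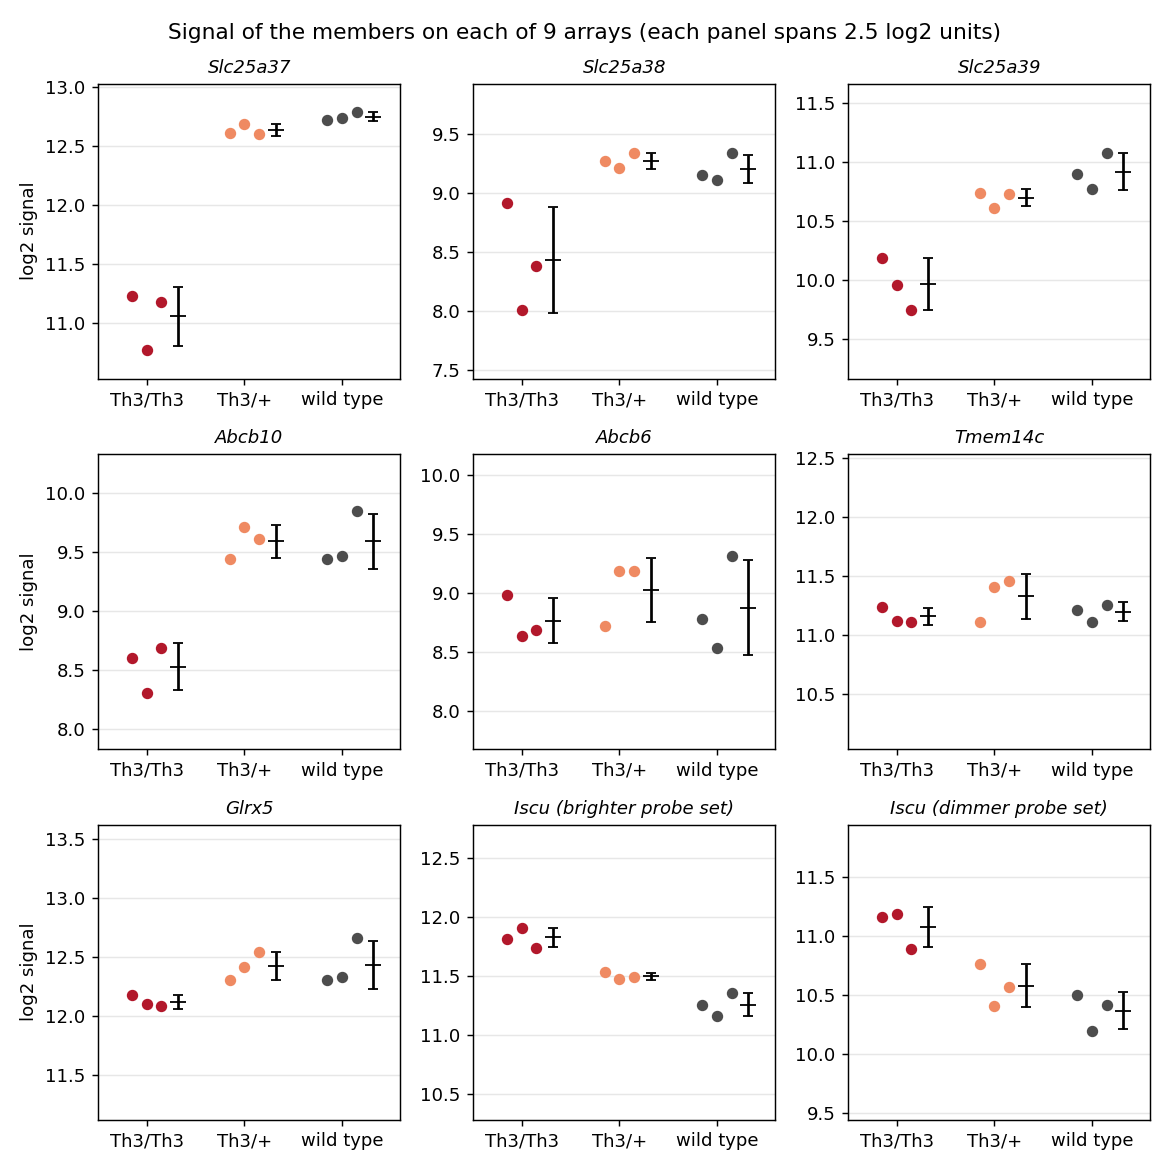
Log2 signal (vertical axis) of the 9 member probe sets on each array, with the mean and SD of 3 arrays to the right of the points. In the Slc25a37 panel the Th3/Th3 arrays sit between 10.77 and 11.23, below the Th3/+ arrays (12.60 to 12.69) and the wild type arrays (12.72 to 12.79), while in the panel of the brighter Iscu probe set they sit above both.

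Slc25a37 (chr14:69241848-69285544, GRCm38.p6) encodes mitoferrin-1, the carrier that brings iron into the mitochondria of erythroid cells. It read 11.23, 10.77 and 11.18 in Th3/Th3 replicates 1 to 3, 12.61, 12.69 and 12.60 in Th3/+ replicates 1 to 3, and 12.72, 12.74 and 12.79 in wild type replicates 1 to 3. Every Th3/Th3 array lay more than a log2 unit below every other array. The difference of Th3/Th3 from wild type was -1.69 (SE 0.11, 95% interval -1.93 to -1.45, adjusted p = 5.11e-05, limma), the 47th lowest of the 17742 probe sets tested. Over 23 alternatives of processing and of arrays used it stayed between -1.77 and -1.55 and was called under each of them.

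Abcb10 (chr8:123952459-123983122) encodes an inner mitochondrial membrane transporter that binds the mitoferrin-1 protein and stabilizes it in mouse erythroid cells. Its signal was 8.60, 8.31 and 8.69 in Th3/Th3, 9.44, 9.71 and 9.61 in Th3/+, and 9.44, 9.47 and 9.85 in wild type. The Th3/Th3 arrays lay below all the others, and the Th3/+ and wild type arrays overlapped. Th3/Th3 differed from wild type by -1.06 (SE 0.16, adjusted p = 0.00289, limma), and by -1.14 to -0.93 over the 23 alternatives, with the call kept in each.

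Slc25a39 (chr11:102402969-102408675), a carrier needed for the uptake of glutathione into mitochondria, read 10.19, 9.96 and 9.75 in Th3/Th3, 10.74, 10.61 and 10.73 in Th3/+, and 10.90, 10.77 and 11.08 in wild type. Each genotype occupied a range of its own, with Th3/+ between the others and close to wild type. The difference of Th3/Th3 from wild type was -0.95 (SE 0.13, adjusted p = 0.00194, limma), and -1.06 to -0.84 over the 23 alternatives, again called in each.

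Slc25a38 (chr9:120110377-120126093) is linked to the import of glycine, the substrate of the first step of heme synthesis, and its loss in humans causes a congenital sideroblastic anemia. Its signals were 8.91, 8.01 and 8.38 in Th3/Th3, 9.27, 9.21 and 9.34 in Th3/+, and 9.15, 9.11 and 9.34 in wild type. The Th3/Th3 arrays lay below all others but were the most scattered of the 8 members within any genotype (SD 0.45), with replicate 1 nearest to the other genotypes. Th3/Th3 differed from wild type by -0.77 (SE 0.20, 95% interval -1.23 to -0.31), with an adjusted p of 0.0383 (limma). This call was lost in 12 of 23 alternatives (adjusted p = 0.00482 to 0.121 over all 23). Leaving out Th3/Th3 replicate 1 gave -1.01 with the call kept, and leaving out any other array gave -0.81 to -0.56 and ended it: adjusted p was 0.0949 and 0.0998 without Th3/Th3 replicates 2 and 3, 0.0526, 0.0624 and 0.0609 without Th3/+ replicates 1, 2 and 3, and 0.0912, 0.0830 and 0.121 without wild type replicates 1, 2 and 3.

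Tmem14c and Abcb6, the members tied to porphyrins, showed no such fall. Tmem14c (chr13:41016250-41022582) is required in mouse erythroid cells for porphyrin to reach the last, mitochondrial enzymes of heme synthesis. Its signal was 11.24, 11.12 and 11.11 in Th3/Th3, 11.11, 11.41 and 11.46 in Th3/+, and 11.21, 11.11 and 11.26 in wild type, so that all 3 genotypes overlapped. Th3/Th3 lay 0.04 below wild type (difference -0.04, 95% interval -0.27 to 0.19, adjusted p = 0.864, limma). The interval leaves out a fall of the size seen for Slc25a37, Abcb10 or Slc25a39, and does not show that the level was the same.

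Abcb6 (chr1:75171640-75180392), a porphyrin-binding transporter that also carries a human blood group antigen, read 8.99, 8.64 and 8.69 in Th3/Th3, 8.72, 9.19 and 9.19 in Th3/+, and 8.78, 8.54 and 9.32 in wild type. Here the arrays of all genotypes overlapped and the wild type arrays were the most scattered (SD 0.40). The difference of Th3/Th3 from wild type was -0.10, with an interval from -0.60 to 0.39 (adjusted p = 0.822, limma). It changed sign over the alternatives, from -0.28 to 0.11, without a call in any of the 23.

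Of the cluster proteins, Iscu passed the test and Glrx5 did not. Iscu (chr5:113772418-113778288) is the scaffold on which iron-sulfur clusters are first assembled. Its brighter probe set read 11.82, 11.91 and 11.74 in Th3/Th3, 11.54, 11.48 and 11.49 in Th3/+, and 11.26, 11.16 and 11.36 in wild type. The genotypes formed 3 separate ranges, highest in Th3/Th3 and lowest in wild type. Th3/Th3 exceeded wild type by 0.57 (SE 0.08, adjusted p = 0.00173, limma).

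On its dimmer probe set Iscu read 11.16, 11.19 and 10.89 in Th3/Th3, 10.76, 10.41 and 10.57 in Th3/+, and 10.50, 10.20 and 10.42 in wild type. There the Th3/+ and wild type arrays overlapped, and the Th3/Th3 arrays again lay above all others. The rise was 0.71 (SE 0.13, adjusted p = 0.00781, limma). Both probe sets are listed for the same RefSeq transcript, share most of their listed accessions and are not independent readings. Whether either of them also reads a processed copy of the gene elsewhere in the genome cannot be told from the platform annotation. Every result read from the brighter probe set carries that limit, also where Iscu is named alone. Among these are its difference from Slc25a37 on the same array and its nearest genes. The rise in Th3/Th3 was called on both in every alternative tried, 23 for the brighter and 22 for the dimmer.

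Glrx5 (chr12:105032618-105040911), the glutaredoxin that takes clusters from the scaffold to their acceptors and whose loss in zebrafish causes anemia, read 12.18, 12.10 and 12.08 in Th3/Th3, 12.30, 12.41 and 12.54 in Th3/+, and 12.30, 12.33 and 12.66 in wild type. The Th3/Th3 arrays lay just below all the others. Their difference from wild type, -0.31 (SE 0.10, 95% interval -0.53 to -0.08), did not pass (adjusted p = 0.0790, limma). Quantile normalization was the 1 alternative of 23 that brought it past the threshold, at -0.40 (adjusted p = 0.0182).

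**Figure D2:**
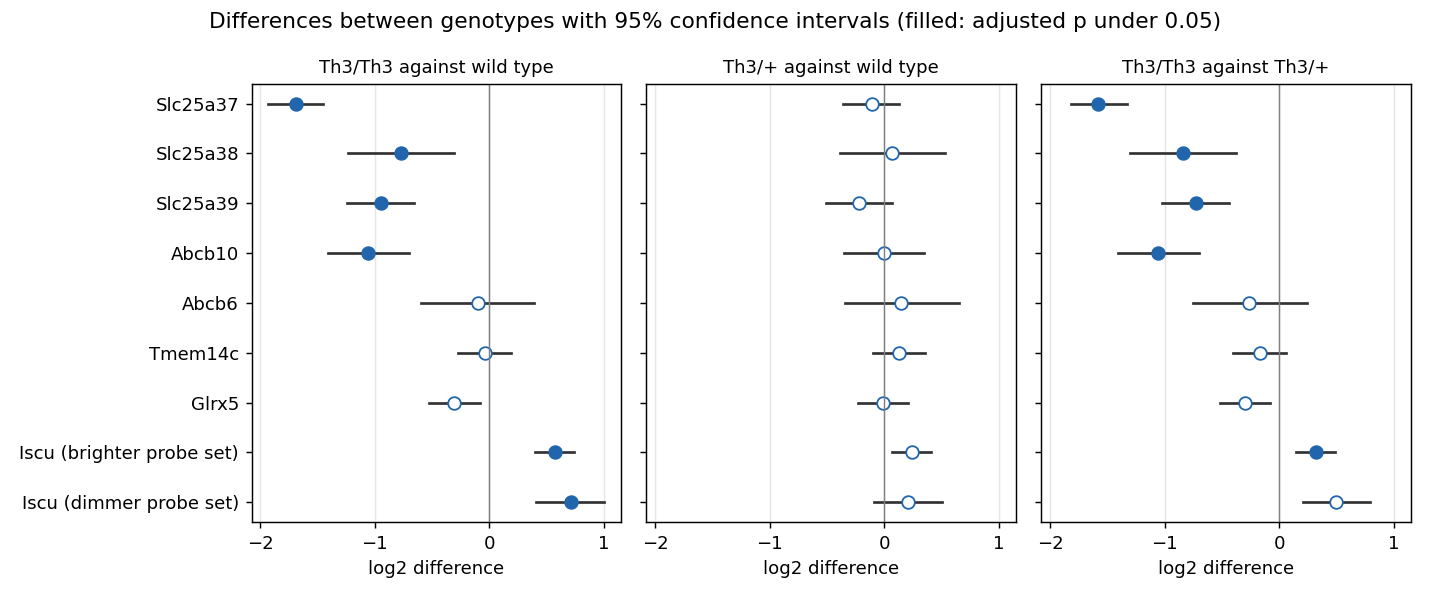
Log2 difference between genotypes (horizontal axis) for each member probe set, with 95% confidence intervals from limma; filled points have an adjusted p under 0.05. In the left and right panels Slc25a37, Slc25a38, Slc25a39 and Abcb10 lie to the left of 0 and Iscu to the right, while in the middle panel, Th3/+ against wild type, no point is filled and all lie between -0.22 and 0.24.

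Th3/+ against wild type asked whether 1 Th3 allele was accompanied by a change. No member was called (0 of 8), where 0.0282% of all probe sets, or 5 of 17742, were. The members' differences ran from -0.22 for Slc25a39 to 0.24 for Iscu (log2), each with an adjusted p of 1.00 (limma). At an unadjusted p under 0.05 there was 1 member, Iscu on its brighter probe set (difference 0.24, 95% interval 0.07 to 0.41). Beside it stood 645 of all 17742 probe sets. On the dimmer Iscu probe set the difference was 0.21 (95% interval -0.09 to 0.50, unadjusted p = 0.147, limma), and the arrays overlapped. The Th3/+ and wild type arrays did not overlap for 3 of 8 members, against 7.63% of all probe sets. These were Slc25a37 and Slc25a39 on the lower side and Iscu, on its brighter probe set, on the higher. For Slc25a37 the interval of the Th3/+ difference was -0.36 to 0.13, and for Abcb10 it was -0.35 to 0.35, around a difference of 0.

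Th3/Th3 against Th3/+ asked whether the second Th3 allele set the cells apart from carriers of 1. The same 4 members were called lower and Iscu higher, among 3.26% of all probe sets called lower and 4.01% called higher. Both this comparison and the one against wild type use the Th3/Th3 arrays, so they do not stand as separate evidence. Slc25a37 differed by -1.58 (adjusted p = 0.000187), Abcb10 by -1.06 (adjusted p = 0.00495), Slc25a38 by -0.84 (adjusted p = 0.0377) and Slc25a39 by -0.73 (adjusted p = 0.0105, limma for each). Iscu exceeded Th3/+ by 0.32 on its brighter probe set (adjusted p = 0.0338) and by 0.50 on the dimmer one, where it did not pass (adjusted p = 0.0516). Glrx5 stood at -0.30, Abcb6 at -0.26 and Tmem14c at -0.17, with adjusted p of 0.118, 0.574 and 0.396.

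In this comparison the calls of Slc25a38 and of Iscu were not stable. Slc25a38 lost its call without any array other than Th3/Th3 replicate 1 (adjusted p = 0.0567 to 0.114). Iscu on its brighter probe set lost it without Th3/Th3 replicate 1 or 2 (0.0618 and 0.109), Th3/+ replicate 1, 2 or 3 (0.0652, 0.125 and 0.101) or wild type replicate 1 (0.0548). Without both arrays that stood apart, Iscu differed by 0.34 and was not called (adjusted p = 0.0936), which left 4 members called. Slc25a37, Abcb10 and Slc25a39 were called in every alternative.

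Whether the Th3/+ level departed from the midpoint between Th3/Th3 and wild type was tested as a contrast of its own. Slc25a37 in Th3/+ cells lay 0.73 above that midpoint (log2, SE 0.09, adjusted p = 0.0479, limma), 1 of 14 such probe sets (0.0789% of 17742). The departure stayed between 0.66 and 0.78 over 22 alternatives, but the call was lost in 13 of them, among them those without Th3/Th3 replicate 3 (adjusted p = 0.0739), without Th3/+ replicate 1, 2 or 3 (0.195, 0.270 and 0.169) and without wild type replicate 1, 2 or 3 (0.163, 0.136 and 0.0831). It was also lost with the replicate number as a block (adjusted p = 0.0593) and without both arrays that stood apart (0.163). For Abcb10 the departure was 0.53 and did not pass (95% interval 0.22 to 0.84, adjusted p = 0.244). Iscu lay near the midpoint on its brighter probe set (-0.04, 95% interval -0.19 to 0.11).

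Unequal change within the group was described by differences between genes on the same array, for pairs chosen with the members' differences known. The separation of the arrays in these pairs follows largely from values given above and is no separate evidence. Iscu minus Slc25a37 was 0.60, 1.14 and 0.56 on the Th3/Th3 arrays, -1.07, -1.22 and -1.11 on the Th3/+ arrays and -1.46, -1.58 and -1.43 on the wild type arrays. The 3 genotypes did not overlap, and Th3/Th3 exceeded wild type by 2.26 log2 units (exact two-sided permutation p = 0.1, the smallest that 3 against 3 arrays allow). Abcb10 minus Abcb6 was -0.39, -0.33 and 0.00 in Th3/Th3, 0.73, 0.53 and 0.42 in Th3/+, and 0.66, 0.94 and 0.54 in wild type (difference of Th3/Th3 from wild type -0.95, exact p = 0.1). Slc25a28, mitoferrin-2, the form found in most tissues, differed by 0.14 between Th3/Th3 and wild type (adjusted p = 0.389, limma). Slc25a37 minus Slc25a28 fell by 1.83 in Th3/Th3 relative to wild type (exact p = 0.1).

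Markers of the cells themselves moved with genotype. Of the 12 erythroblast markers measured, 10 were lower and 0 higher in Th3/Th3 than in wild type (median -0.69, range -1.12 to -0.32). The mean signal of all 12 ran from 10.54 to 10.81 on the Th3/Th3 arrays, 11.32 to 11.40 on the Th3/+ arrays and 11.35 to 11.51 on the wild type arrays. Set against that mean on the same array, a comparison chosen after the data were seen, Slc25a37 in Th3/Th3 cells was still 0.98 lower than in wild type (difference -0.98) and Abcb10 0.35 lower (difference -0.35), without overlap of the arrays. Slc25a38 (-0.06) and Slc25a39 (-0.24) overlapped. Tmem14c (0.67), Abcb6 (0.60), Glrx5 (0.40) and both Iscu probe sets (1.27 and 1.41) lay above, with no overlap (exact p = 0.1 for each that did not overlap). Because the marker mean was itself lower in Th3/Th3, a member with an unchanged level also lies above it. The signals of Tmem14c, Abcb6 and Glrx5 themselves differed from wild type by -0.04, -0.10 and -0.31, none called, so these offsets do not show a rise of those genes. Single markers also differed in size of fall. The difference of Abcb10 itself (-1.06) lay within the range of the 12 markers, and that of Slc25a37 (-1.69) lay beyond it.

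**Figure D3:**
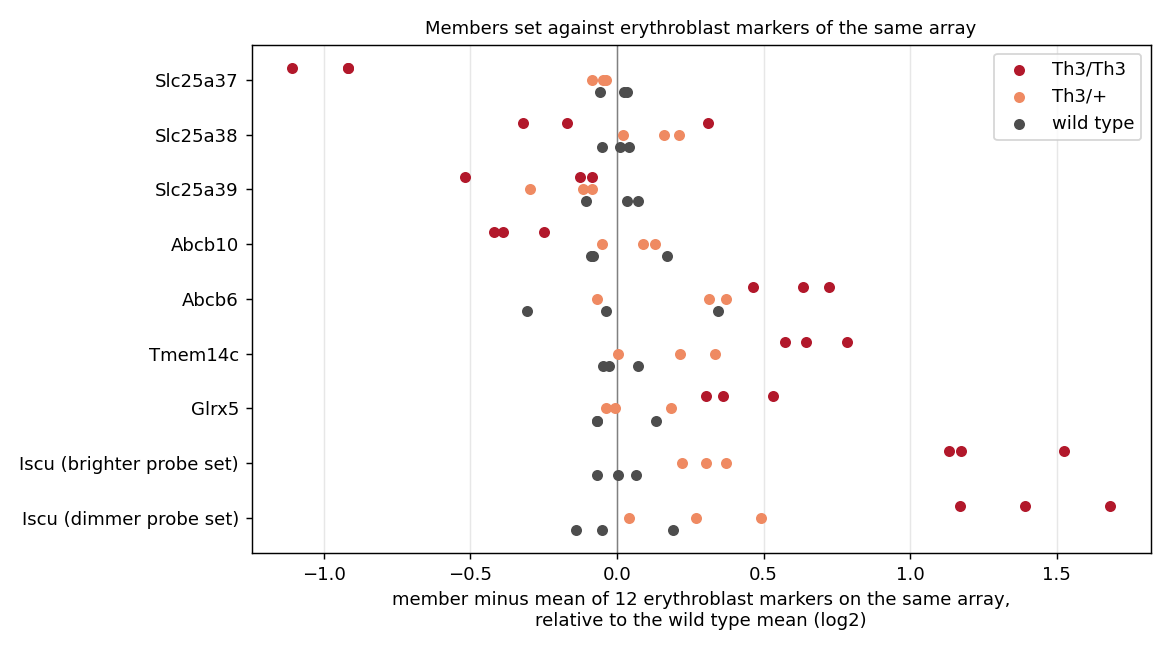
Each member minus the mean of 12 erythroblast markers on the same array, drawn relative to the wild type mean (horizontal axis, log2), with 3 arrays per genotype. The Th3/Th3 points of Slc25a37 and Abcb10 lie to the left of all wild type points, those of Slc25a38 and Slc25a39 reach into them, and those of the other members lie to the right.

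Markers of other cell types had lower mean signals than the erythroblast markers, with single genes well above the array medians of 4.97 to 5.05. Apoa2, a hepatoblast marker, averaged 9.56 in Th3/Th3, 9.67 in Th3/+ and 9.46 in wild type, and Pf4, of megakaryocytes, 7.68, 8.47 and 8.35 (both named after their values were seen). The mean of 15 macrophage markers was 4.69 to 4.85 on the Th3/Th3 arrays, 4.85 to 5.39 on the Th3/+ arrays and 4.91 to 5.23 on the wild type arrays, and of 12 tested 1 was lower in Th3/Th3 and 0 higher. Megakaryocyte markers (8 measured, 8 tested) averaged 6.35 to 6.46, 6.58 to 6.79 and 6.60 to 6.85 in the same order of genotypes, with 1 lower and 0 higher. Hepatoblast markers (12 measured, 11 tested) averaged 6.20 to 6.49, 6.31 to 6.74 and 6.25 to 6.51, with 0 called. Means of 11 granulocyte and mast cell, 9 lymphoid and 11 endothelial and stromal markers lay between 4.51 and 5.20 on all arrays, and none of those tested (6, 4 and 6) was called. The part of any of these, or of the erythroblast markers, in the members' differences was not tested.

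Among the enzymes of heme synthesis, which use what the members deliver, 6 of 8 tested were lower and 1 higher in Th3/Th3 than in wild type, with a median of -0.58 against 0 for all probe sets. This and the list counts that follow stand beside 4.98% of all probe sets called lower and 7.31% called higher. Fech, the ferrochelatase that inserts iron, differed by -0.83 (adjusted p = 0.00188), Cpox by -0.60 (0.00270) and Alad by -0.62 (0.00771). Alas2, the erythroid form of the first enzyme, differed by -0.66 (0.00274), while Alas1, its form in other tissues, was the member called higher, by 0.36 at a low signal (5.55 in Th3/Th3, 5.19 in wild type, adjusted p = 0.0434). No enzyme of the list was called higher once any single array was left out, nor without the 2 arrays that stood apart, with no filter, with the stricter filter or with the replicate block, so the call of Alas1 was lost in each of these. Without Th3/Th3 replicate 3, 4 of the 8 were called. In Th3/+ cells 0 of 8 were called and the differences from wild type lay between -0.05 and 0.12.

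The other genes of mitochondrial cluster assembly were called in both directions. Of 13 tested, 3 were higher and 2 lower in Th3/Th3 (median 0.10), or 3 called in all without Th3/Th3 replicate 3 or without wild type replicate 2. Hspa9, the mitochondrial HSP70 that helps release clusters from Iscu, rose by 1.56 (adjusted p = 0.00387), its nucleotide exchange factor Grpel1 by 0.91 (0.00313), and Nfu1, a late carrier of clusters, by 1.10 (0.0294). Bola3, which acts with Nfu1, fell by 1.06 (0.000497) and Isca1, of the assembly of larger clusters, fell by 0.66 (0.0159). Nfs1, the desulfurase that supplies sulfur to Iscu, differed by 0.13 and its partner Lyrm4 by -0.41, neither past the test (adjusted p = 0.698 and 0.149). No gene of this list was called in Th3/+ against wild type (0 of 13).

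In the cytosolic assembly pathway, 4 of 10 were higher and 0 lower (median 0.26). They were Bola2 (0.55, adjusted p = 0.00194), Glrx3 (0.78, 0.00824), Ciao2b (0.74, 0.00798) and Ciao1 (0.69, 0.0186). Glrx3 and Bola2 work together in the cytosol, and Ciao1 and Ciao2b are parts of the complex that hands clusters to target proteins. Of 21 proteins that carry iron-sulfur clusters, 4 were higher and 1 lower (median 0.06), or 3 called in all without Th3/Th3 replicate 2, wild type replicate 1 or wild type replicate 2. Fech was the lower, and Etfdh (0.97, adjusted p = 0.00716), Cisd1 (0.68, 0.0100), Sdhb (0.61, 0.0145) and Ndufs8 (0.65, 0.0289), of electron transfer in mitochondria or of their outer membrane, were the higher. Genes that stand for mitochondrial content had 1 of 15 higher and 0 lower (median 0.26, range 0.04 to 1.28), the import receptor gene Tomm20 by 1.28 (adjusted p = 0.00101), and 2 called without Th3/Th3 replicate 2 or without the 2 arrays that stood apart. That 1 of 15 is a share near the 7.31% of all probe sets called higher, as 1 of 21 for the iron-sulfur proteins is near the 4.98% called lower.

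Of 18 further genes of mitochondrial iron and heme transport, 3 were higher and 2 lower (median 0.15), or 3 called in all without Th3/Th3 replicate 2 or 3. Tspo2, an erythroid membrane protein related to the translocator protein, fell by 1.41 (adjusted p = 0.000215), and Fam210b, which aids iron import in erythroid cells, fell by 0.52 (0.0154). Pgrmc1, a heme-binding partner of ferrochelatase, rose by 2.20, at 7.12 in Th3/Th3 and 4.92 in wild type (0.000229). Suclg1 and Sucla2, subunits of the enzyme that makes and uses the succinyl-CoA from which heme is built, rose by 0.65 (0.0122) and 1.13 (0.0209). Among 15 genes of iron supply to the cell, 3 were higher and 3 lower (median -0.12). Tfrc, the transferrin receptor and one of the sorting markers, fell by 1.12 (0.000192), the ferritin receptor gene Ncoa4 fell by 0.82 (0.00284), and the iron transporter gene Slc11a2 fell by 0.77 (0.0226). The heme oxygenase gene Hmox1 (1.75, 0.00116), the ferritin gene Ftl1 (0.54, 0.00118) and the iron exporter gene Slc40a1 (0.70, 0.0133) rose. Tfrc is also 1 of the erythroblast markers above.

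Of 10 erythroid transcription factors, 4 were lower and 0 higher (median -0.37), or 2 called without Th3/Th3 replicate 2, wild type replicate 1 or wild type replicate 3. They were Nfe2 (-0.74, adjusted p = 0.00269), Lmo2 (-0.62, 0.00651), Tal1 (-0.56, 0.0191) and Gata1 (-0.56, 0.0210), the last, also 1 of the 12 erythroblast markers, a factor that activates heme and mitochondrial iron genes in erythroid cells. In Th3/+ against wild type no gene of any of these lists was called.

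**Figure D4:**
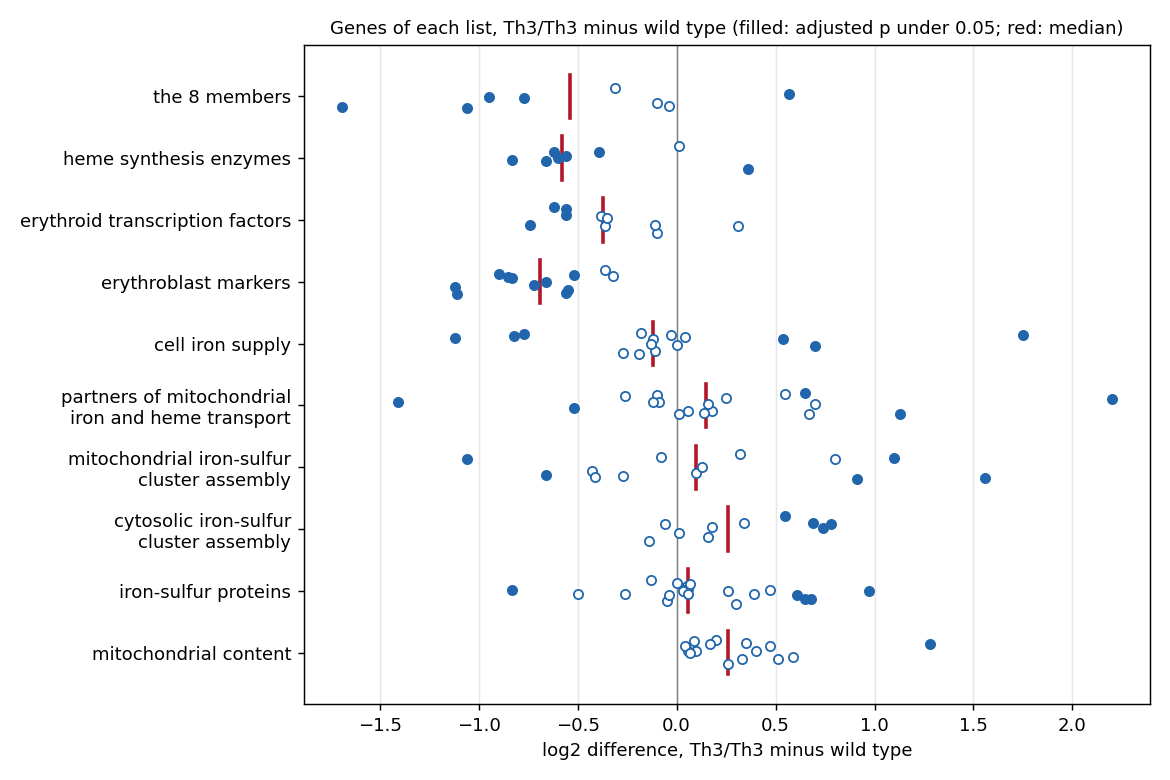
Log2 difference of Th3/Th3 minus wild type (horizontal axis) for 1 probe set per gene in each list, filled where the adjusted p is under 0.05, with the median as a red bar. The medians of the 8 members (-0.54), the heme synthesis enzymes (-0.58), the erythroid transcription factors (-0.37) and the erythroblast markers (-0.69) lie to the left of 0, and those of the cytosolic assembly (0.26) and mitochondrial content (0.26) lists to the right.

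Genes outside the group with the most similar values were found by the root mean square difference over the 9 arrays, each gene set against its own wild type mean, among 12890 other genes. Nearest to Slc25a37 were Ces2g (0.11 log2 units), Map4k5 (0.14) and Ldlrad4 (0.15), with differences of -1.61, -1.68 and -1.67 between Th3/Th3 and wild type. Abcb10 was followed most closely by Lpcat1 (0.05) and Slc20a1 (0.05), then Pigq (0.09). For Slc25a39 they were Jpt1 (0.10), Tmem164 (0.11) and Pheta2 (0.11), and for Slc25a38, H2aw (0.09), Rmc1 (0.11) and Rab43 (0.12). Iscu lay nearest to Bola2 (0.05), a member of the cytosolic list above, then to Supt3 (0.07) and Sin3b (0.08). Glrx5 had Wdr13 (0.05), Asb1 (0.05) and the heme synthesis enzyme gene Urod (0.07), the last with a fall of its own that passed (-0.39, adjusted p = 0.0133). Tmem14c had Idh3g, Gip and Adamtsl5 (0.06 each), and Abcb6 had Timm17b (0.10), Zfp866 (0.11) and Tecr (0.12). With each gene set against its mean over all 9 arrays instead, 1 of the 3 names remained for Slc25a37, 3 for Abcb6 and 2 for each other member. Among the members themselves, Slc25a39 and Abcb10 were 0.24 apart, Slc25a38 and Abcb10 0.26, Slc25a37 and Abcb10 0.39, and Slc25a37 and Iscu, the farthest pair, 1.33.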

How the data were processed

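RNA (35 ng per sample, per the labels) was amplified, labelled with biotin and hybridized to whole-transcript arrays. The authors deposited 1 log2 value per probe set and array; MAS5 is named in the submitters' processing notes. Its settings and the normalization were not stated there or in the labels. Array medians lay between 4.97 and 5.05, so the deposited log2 values were used as they stand. Array number, not depth, limits precision: 3 per genotype. Of 35556 probe sets, 6617 with identifiers below the first annotated one were left out as the control block; of the others, 21789 had 1 gene symbol, 1621 several and 5529 were not listed.

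A probe set was kept if, on 3 or more arrays, it exceeded the array's 40th percentile (17742 were). limma 3.58.1 (R 4.3.3) estimated the genotype means jointly from the 9 arrays, with eBayes and a mean-variance trend, and tested their differences two-sided, with Benjamini-Hochberg adjustment over all kept probe sets and calls at an adjusted p under 0.05. A gene was read by its brightest kept probe set. Fold changes are antilogs of log2 differences. All 8 members are named, up to 4 genes past the test per list by smallest adjusted p, and the 3 nearest genes of each member; Alas1, Nfu1, Ndufs8, Sucla2, Slc25a28, Slc40a1, Slc11a2, Nfs1 and Lyrm4 were named outside this rule, after their values were seen. The members and lists were chosen with earlier results of these data known. Alternatives were other filters, scalings, variance models, blocks and array sets. Gene positions and upstream sequences are from RefSeq, GRCm38.p6.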

Additional observations from a re-analysis of the deposited data

How the results depend on the processing

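Over 815 recomputed member differences the call was kept or stayed absent in 756, lost in 47 and gained in 12, and no called difference changed sign. Members called in Th3/Th3 against wild type numbered 4 to 6 over 24 alternatives (5 as reported), and in Th3/+ against wild type 0 in each of them. In Th3/Th3 against Th3/+ (5 as reported) 3 were called with no filter and 3 with sex, read from Xist and Y-linked signal, as a term, and 3 to 5 when single arrays were left out. Against the midpoint (1 as reported) 0 were called with no filter, median centring, eBayes without a trend, the replicate block, sex as a term or without the 2 arrays that stood apart, 2 with array weights, and 0 to 1 when single arrays were left out. Probe sets called in Th3/+ against wild type (5) numbered 10 with the stricter filter (60th percentile), 0 with only the 6 arrays of the contrast, 10 with the replicate number as a random block, 22 with array weights, 3 without the 2 arrays, and 1 to 12 with single arrays left out. Those in Th3/Th3 against Th3/+ (1290) numbered 798 with only the 6 arrays and 585 to 1412 with single arrays left out, those in Th3/Th3 against wild type (2181) 1444 to 2310, and those departing from the midpoint (14) 1 to 213 over all alternatives. Leaving out arrays lowers the residual degrees of freedom; the cause of the other changes was not tested. Same-numbered arrays did not all deviate together (r = -0.13 to 0.36), and the labels name no shared litter or day. The numbers were therefore not taken as pairs in the main fit. Still, the second principal component fell from replicate 1 through 2 to 3 in each genotype. It read 25.54, -8.9 and -14.89 in Th3/Th3, 20.53, -10.1 and -13 in Th3/+, and 7.71, 5.16 and -12.04 in wild type. With the replicate block, 2470 probe sets were called in Th3/Th3 against wild type. That block ended the call of Iscu against Th3/+ on the brighter probe set (adjusted p = 0.0562) and brought the dimmer one past the threshold (0.0418). It also ended the midpoint call of Slc25a37 and changed no other member call.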
